A study of Mus musculus with 8 samples.

Results

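The histone genes of mouse mammary tumors are described here, together with the testis-type gene H2ac1. Members were chosen by symbol, under a rule set with earlier results of these data known. They were protein-coding genes named Hist1h, Hist2h, Hist3h or Hist4h in the older nomenclature, or H1f, H2ac, H2bc, H3c or H4c in the newer one. Added to these were H2ax (older name H2afx), H2az1 (H2afz), H3f3a, H3f3b and H1f0. The annotation held 75 such genes after 4 pseudogenes were left out. Of these, 60 were among the 35539 genes of the expression table, and the other 15, H1f0 among them, were not analysed here because their gene IDs did not match a row. Levels are in TPM, a unit that gives each gene's portion of all transcripts in a tumor after correction for transcript length. An average of 0.5 TPM or more was reached by 53 of the 60, and by 16565 genes of the whole table. The 53 comprised 6 H1, 17 H2A, 12 H2B, 8 H3 and 10 H4 genes. By kind, 46 were replication-dependent, 5 were replication-independent (H2ax, H2az1, H3f3a, H3f3b and H1f10) and 2 were of testis or germ line type (H2ac1 and H1f8).

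Bulk RNA-seq was carried out on 8 frozen mammary tumors, 4 per genotype, to compare tumors that arose with and without extra HMMR, a microtubule-associated protein of the mitotic spindle. HMMR-Tg tumors (tumors 5 to 8) carried HMMR Tg/Tg, Brca1f/f and Trp53+/-, and control tumors (tumors 1 to 4) carried Brca1f/f and Trp53+/- without the transgene. The transgene is a human HMMR cDNA placed in the Rosa26 locus behind a loxP-flanked stop cassette. Mice of both genotypes carried Blg-Cre, a Cre recombinase under the beta-lactoglobulin promoter that acts in mammary epithelium after pregnancy, floxed Brca1 exons and 1 mutant Trp53 allele, on a mixed background. Recombination was therefore limited to cells that had used that promoter, whereas bulk tissue also holds stroma, leukocytes and vessels. The labels describe the mice as age-matched and give no age per tumor. They do not say that each tumor came from a separate mouse, and p-values therefore rest on tumor-to-tumor spread alone. Read depth cannot be recovered from TPM and is unknown here, and genes without reads in the table are called listed at 0.

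Histones package DNA into nucleosomes, each an octamer of the core histones H2A, H2B, H3 and H4, while the linker histone H1 binds the DNA between them. Replication-dependent histone genes lie in clusters, are transcribed in S phase when new DNA must be wrapped, and give mRNAs that end in a conserved stem-loop rather than a poly(A) tail; the stem-loop binding protein SLBP carries these mRNAs through processing and translation. Replication-independent variants such as H3.3 and H2A.Z are made throughout the cell cycle from polyadenylated mRNAs, and testis-type histones replace the somatic ones in male germ cells before protamines are loaded.

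The sequence that ends a replication-dependent histone mRNA is shown first because it is common among these genes and rare elsewhere. The letters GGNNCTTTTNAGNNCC were searched downstream of the coding end in the mm9 genome, for 52 of the 53 genes, and were found in 41. They were found in 19 of 22321 other protein-coding genes, or 0.085%. The 41 genes shared 7 versions of it, of which 4 are given below, written 5′ to 3′ as DNA with the loop in capitals and the stem in lower case.
H2ac1, H1f2, H2bc4 and 23 other genes: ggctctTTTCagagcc
H2bc12 and 3 other H2B or H3 genes: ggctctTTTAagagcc
H4c8 and 4 other H4 genes: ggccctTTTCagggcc
H4c2 and 1 other H4 gene: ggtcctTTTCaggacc
The stem opened with ggctct in 31 of the 32 H1, H2A, H2B and H3 genes and in 0 of the 9 H4 genes that had one. H2ax, which gives rise to both stem-loop and polyadenylated mRNAs, carried a version of its own, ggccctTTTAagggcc. No such letters were found behind H2az1, H3f3a, H3f3b or H1f10, nor behind 6 replication-dependent genes (H2ac22, H2bc21, H2bc22, H2bc23, H4c1 and Hist1h2br). The search began after the last coding base over all annotated transcripts of a gene. H2bc22, H2bc23 and Hist1h2br have 2 or 3 transcripts, so a stem-loop behind a nearer stop codon could have been missed there. In H2ac1 the stem-loop lay at chr13:24026760-24026775 on the plus strand of mm9 and began 40 bases past the annotated end of the gene, whose annotation of 390 bases at chr13:24026331-24026720 is a single exon without untranslated sequence.

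H2ac1 (older name Hist1h2aa) encodes a testis-type H2A and lies at the edge of the large histone cluster of chromosome 13, head to head with H2bc1 (Hist1h2ba), its testis-type H2B partner. The RefSeq starts of these genes are 280 bases apart, so that 220 bases are shared by the windows of 250 bases before each. The window before H2ac1 is given because that gene differed most between the genotypes among the histone genes. It is chr13:23934187-23934436 of GRCm38.p6, plus strand, with matches of the CCAAT box, the TATAAA box and the octamer ATTTGCAT in capitals, on either strand.
H2ac1: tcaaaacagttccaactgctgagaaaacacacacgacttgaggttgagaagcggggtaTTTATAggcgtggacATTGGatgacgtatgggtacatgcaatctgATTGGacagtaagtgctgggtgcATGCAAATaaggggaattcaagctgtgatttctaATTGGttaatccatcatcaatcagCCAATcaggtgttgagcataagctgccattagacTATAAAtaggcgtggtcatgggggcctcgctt
It held 4 CCAAT boxes, 2 TATAAA boxes and 1 octamer, each counted on both strands. For comparison, the window before H1f2, the most abundant replication-dependent member, at chr13:23738557-23738806 on the plus strand, held 1 CCAAT box and neither of the others.
H1f2: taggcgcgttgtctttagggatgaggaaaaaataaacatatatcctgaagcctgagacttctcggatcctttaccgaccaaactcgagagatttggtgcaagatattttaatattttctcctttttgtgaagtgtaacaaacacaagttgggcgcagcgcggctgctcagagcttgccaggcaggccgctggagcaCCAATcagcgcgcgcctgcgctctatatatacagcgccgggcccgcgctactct
In windows of 250 bases, CCAAT was found in 44 of the 55 members matched to RefSeq (80.0%), against 33.8% of 32817 promoters of all genes. The TATAAA letters were found in 26 (47.3%), against 12.4% of all promoters. The octamer was found in 13 (23.6%), against 1.60%, and these were 7 H2A genes, 5 H2B genes and 1 H3 gene. Head-to-head pairs share part of their windows, so that the same site can count for both genes. For the octamer this held for H2ac1 with H2bc1, H2ac12 with H2bc12 and H2ac8 with H2bc8. The counts are matches of letters and not measured binding.

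H2ac1 RNA was nearly absent from HMMR-Tg tumors and present in every control tumor. Its values were 0, 0.278, 0 and 0.573 TPM in HMMR-Tg tumors 5 to 8, against 3.40, 9.21, 12.8 and 4.46 TPM in control tumors 1 to 4. The lowest control tumor stood well above the highest HMMR-Tg tumor, and 2 HMMR-Tg tumors were listed at 0. The means were 0.213 ± 0.274 TPM in HMMR-Tg tumors and 7.47 ± 4.37 TPM in control tumors (SD, n = 4 each). On the log2(TPM + 1) scale, which understates the change of low genes, the difference was -2.68 with a standard error of 0.39 (95% interval -3.55 to -1.81). It did not pass the threshold of 0.05 after Benjamini-Hochberg adjustment over all 16565 genes (limma, adjusted p = 0.0818, unadjusted p = 5.43e-05). An exact two-sided permutation test gave p = 0.0286, which is the smallest that 4 tumors against 4 can give. H2ac1 passed the filter of 0.5 TPM only through the control tumors, where it is high. Its difference is therefore in part built in, and these p-values are a description. Over 19 other settings the difference lay between -4.88 and -1.19, and the adjusted p of limma lay between 0.064 and 0.600.

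**Figure D1:**
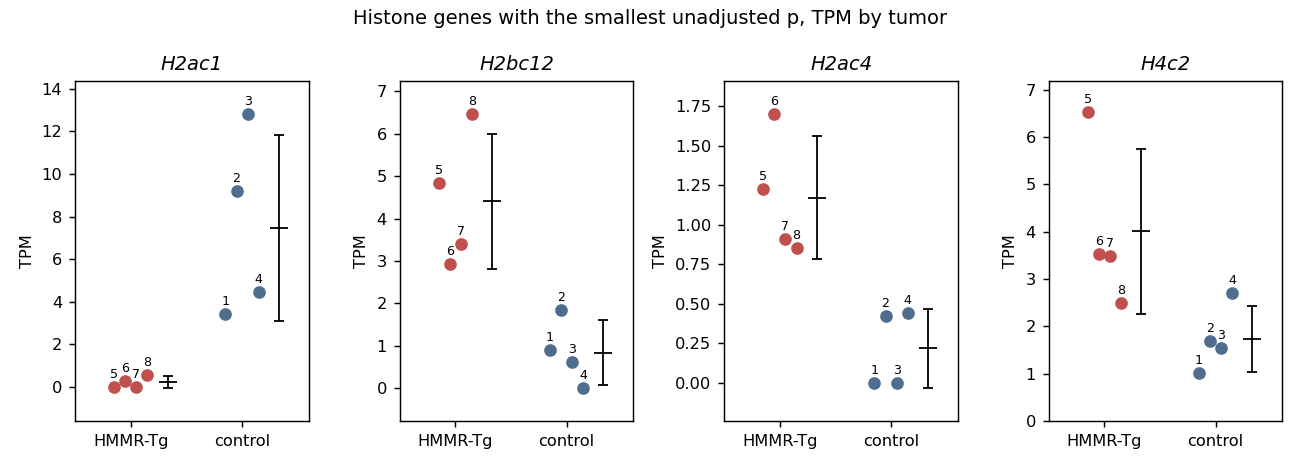
TPM of H2ac1, H2bc12, H2ac4 and H4c2 (y axis, linear) in each tumor, with HMMR-Tg tumors 5 to 8 on the left and control tumors 1 to 4 on the right. Numbers name the tumors, and the bar beside each group is its mean with 1 SD (n = 4). H2ac1 reached at most 0.573 TPM in HMMR-Tg tumors and at least 3.40 TPM in control tumors, and the genotypes also did not overlap in H2bc12 and H2ac4, while they did in H4c2.

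H2ac1 was also taken as a share of the summed TPM of 16 H2A genes. These are the H2A genes of the naming rule found in the table, without H2ax and H2az1. H2ac1 took 0, 0.224, 0 and 0.253% in HMMR-Tg tumors 5 to 8, against 3.97, 3.81, 7.66 and 3.74% in control tumors 1 to 4. The share is not of all H2A RNA: H2aj, outside the rule, had 66.5 to 281 TPM over the 8 tumors. The sum of the 16 genes averaged 156 ± 50.5 TPM in HMMR-Tg tumors and 153 ± 67.8 TPM in control tumors (SD, n = 4 each). The head-to-head partner of H2ac1, H2bc1, was listed at 0 in all 8 tumors. Of the reads that H2ac1 can yield, most are its own: 88.3% of its 31-base words occurred in no other annotated coding transcript, and 10.8% were shared with H2ac23.

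Other genes around H2ac1 did not show its pattern. Of the 19 genes within 200 kb, 10 passed the filter on low values: 8 were histone genes with differences between -0.36 (H4c1) and 0.85 (H4c2), 1 was the pseudogene Gm11336 (-0.68) and 1 was Carmil1, which encodes a regulator of actin capping (0.02). Apart from H2ac4 and H4c2, described below, none of these had an unadjusted p under 0.05. The nearest protein-coding genes on either side of the pair, Slc17a4 and Scgn, had at most 0.0146 TPM in any tumor.

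Other testis and germ cell genes were examined because H2ac1 is known from the testis. Of 25 such genes in the table, 5 were listed at 0 in all tumors and only 4 passed the filter on low values. Their summed level over the 25 was 4.47, 5.00, 8.39 and 7.51 TPM in HMMR-Tg tumors 5 to 8 and 10.3, 9.93, 4.17 and 12.4 TPM in control tumors 1 to 4, with overlap between the genotypes. Among the 4, the smallest p belonged to Brdt, a testis bromodomain protein, with 0.361, 0.863, 0.950 and 3.29 TPM in HMMR-Tg tumors and 4.30, 3.37, 0.564 and 8.43 TPM in control tumors (difference -1.0, SE 0.55, limma unadjusted p = 0.101). Control tumor 3, where H2ac1 was highest, had the second lowest Brdt level of all 8. Next came Boll, an RNA-binding protein of meiotic cells, with a difference of -0.26 (SE 0.22, limma unadjusted p = 0.277). The other testis-type H1 genes were low as well: H1f6 did not exceed 0.226 TPM, and H1f7 was listed at 0 throughout. H1f8, the oocyte linker histone, had 0.684, 0, 3.08 and 0 TPM in HMMR-Tg tumors and 0.152, 0.274, 0 and 0 TPM in control tumors (difference 0.56, SE 0.42, limma unadjusted p = 0.218).

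The genes whose log2(TPM + 1) followed H2ac1 most closely over the 8 tumors, among 13868 tested genes (pseudogenes and genes without a descriptive symbol left out), were S100pbp (Pearson correlation 0.957), Pfkp (0.901), Cnih3 (0.901), Nrtn (0.869) and Klra17 (0.858). The points are the same 8 tumors, so any gene that separates the genotypes ranks high, and the correlations are a description. Pfkp, a phosphofructokinase of glycolysis, had 90.5, 80.9, 70.5 and 100 TPM in HMMR-Tg tumors and 158, 230, 165 and 116 TPM in control tumors. Cnih3, an auxiliary protein of glutamate receptors, had at most 0.638 TPM in HMMR-Tg tumors and at least 1.21 TPM in control tumors. None of the 5 passed the adjusted threshold.

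Across all 53 histone genes, no gene passed the adjusted threshold in either direction. Over all genes tested 0.0543% passed as higher in HMMR-Tg tumors (9 genes) and 0.0% as lower; for the histone genes the lowest adjusted p was that of H2ac1, and at an unadjusted p under 0.05 limma gave 4 genes higher and 1 lower. That was 7.55% of the 53 higher, against 1.71% of all genes, and 1.89% lower, against 1.78% of all genes. Genotypes did not overlap in 2 histone genes higher in HMMR-Tg tumors, where the background was 1.12%, and in 1 lower, where it was 1.19%. The mean was higher in HMMR-Tg tumors for 32 of the 53 (60.4%, against 49.1% of all genes), with a median difference of 0.11 on the log2 scale against -0.01 for all genes. All 5 genes with an unadjusted p under 0.05 had means under 5 TPM, and none of the 20 histone genes that averaged 5 TPM or more had such a p. These counts moved with single tumors. Without control tumor 4 there were 7 genes higher at that p, where the share of all genes in the same fit was 1.39%, and 5 higher without overlap, where it was 2.14%. Without HMMR-Tg tumor 5 there were 4 higher without overlap (2.16% of all genes), and without HMMR-Tg tumor 6 there were 2 lower without overlap (1.85% of all genes). Of the 53 genes, 5 (H2ac1, H2ac4, H3c1, H1f8 and H2bc7) averaged under 0.5 TPM in 1 genotype and passed the filter only through the other, where they are high, so that their difference is in part built in. Among the remaining 48, limma gave 3 genes higher in HMMR-Tg tumors with an unadjusted p under 0.05 and 0 lower, and 1 gene was higher and 0 lower without overlap, where the shares of all genes filtered in the same way were 1.48%, 1.63%, 0.934% and 1.07%. That filter was added after the values had been seen. Most histone mRNAs share sequence, so that reads may be split among copies: over the 52 genes with a transcript sequence the median share of 31-base words that were a gene's own was 48.5%, and it was under 20% for 10.

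**Figure D2:**
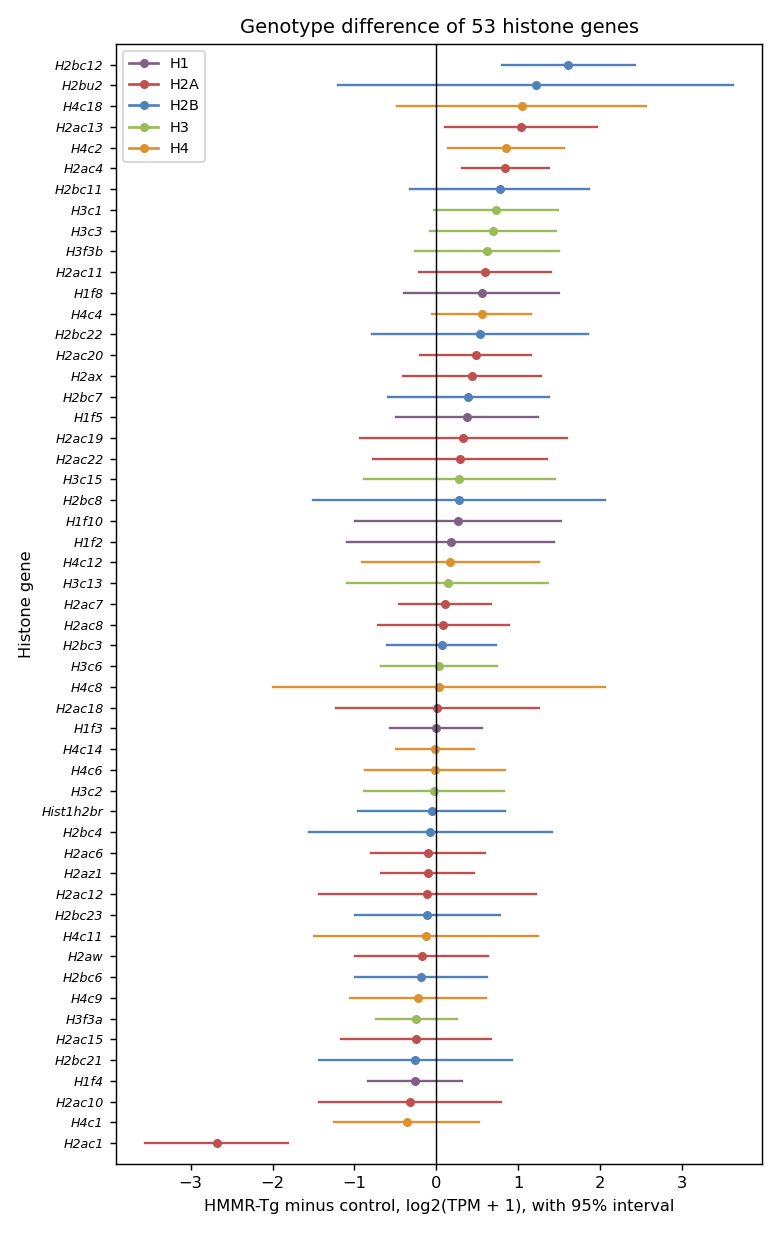
Difference of HMMR-Tg minus control tumors on the log2(TPM + 1) scale (x axis) for the 53 reported histone genes (y axis, ordered by the difference), with its 95% interval from limma and colours for the histone class. H2ac1 lies alone at -2.68, H2bc12 lies highest at 1.61, and most intervals cross 0.

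H2bc12 (Hist1h2bk), a replication-dependent H2B gene, had 4.83, 2.93, 3.40 and 6.47 TPM in HMMR-Tg tumors 5 to 8 and 0.897, 1.85, 0.603 and 0 TPM in control tumors 1 to 4. The genotypes did not overlap, with the controls low and 1 of them listed at 0. The difference was 1.61 (SE 0.36, limma adjusted p = 0.721, unadjusted p = 0.00139), and only 25.2% of its 31-base words were its own, 67.5% being shared with Hist1h2br. Hist1h2br itself had a difference of -0.05. H2ac12, which faces H2bc12 from the opposite strand, was listed at 0 in HMMR-Tg tumor 5 and had 1.01, 1.74 and 8.86 TPM in HMMR-Tg tumors 6 to 8, against 1.89, 1.71, 2.66 and 1.57 TPM in control tumors (difference -0.11, SE 0.59, limma adjusted p = 1.00).

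H2ac4 (Hist1h2ab) had 1.22, 1.70, 0.909 and 0.851 TPM in HMMR-Tg tumors and 0, 0.424, 0 and 0.442 TPM in control tumors (difference 0.84, SE 0.24, limma unadjusted p = 0.00575). The genotypes did not overlap, though all values were low and the gene passed the filter only through the HMMR-Tg tumors, and 58.2% of its words were shared with H2ac7. H4c2 (Hist1h4b), an H4 gene of the same stretch of chromosome 13, had 6.52, 3.53, 3.48 and 2.50 TPM in HMMR-Tg tumors and 1.01, 1.69, 1.54 and 2.69 TPM in control tumors (difference 0.85, SE 0.32, limma unadjusted p = 0.0237). HMMR-Tg tumor 8 fell below control tumor 4 in that gene. H2ac13 (Hist1h2ai) had 4.05, 2.49, 4.46 and 2.58 TPM in HMMR-Tg tumors and 1.50, 0, 0.923 and 3.08 TPM in control tumors (difference 1.03, SE 0.42, limma unadjusted p = 0.0333), with control tumor 4 inside the HMMR-Tg range. The next 3 genes by limma's unadjusted p were H3c1 (difference 0.73, SE 0.34, unadjusted p = 0.0569), H4c4 (0.55, SE 0.27, unadjusted p = 0.0692) and H3c3 (0.69, SE 0.34, unadjusted p = 0.0712), all with means below 3 TPM in both genotypes and with overlap. H3c1 had 0.436, 1.08, 2.67 and 0.948 TPM in HMMR-Tg tumors and 0, 0.684, 0 and 0.685 TPM in control tumors. H4c4 had 0.764, 1.73, 1.17 and 2.29 TPM in HMMR-Tg tumors and 0.451, 0.662, 1.17 and 0.417 TPM in control tumors. H3c3 had 2.71, 1.53, 1.47 and 4.44 TPM in HMMR-Tg tumors and 0.422, 1.37, 0.900 and 1.89 TPM in control tumors.

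The abundant replication-dependent genes varied between tumors more than between genotypes. H1f2 (Hist1h1c) is a linker histone and H2bc4 (Hist1h2bc) an H2B. Together they made up 21.8 to 47.9% of the summed TPM per tumor of the 50 replication-dependent genes in the table. H1f2 had 29.0, 67.1, 86.1 and 257 TPM in HMMR-Tg tumors 5 to 8 and 70.1, 50.8, 112 and 66.9 TPM in control tumors 1 to 4 (difference 0.17, SE 0.56). H2bc4 had 28.9, 57.6, 28.8 and 248 TPM in HMMR-Tg tumors and 56.0, 50.4, 131 and 39.8 TPM in control tumors (difference -0.07, SE 0.66). In both genes HMMR-Tg tumor 8 was the highest and control tumor 3 the next, while HMMR-Tg tumor 5 was lowest in H1f2 and almost level with the lowest, HMMR-Tg tumor 7, in H2bc4. Both genes are annotated to end well past the stem-loop on the genome, by 839 bases in H1f2 and 7826 bases in H2bc4. The single annotated transcript of H2bc4 is 736 bases long, so most of that distance is not transcript sequence.

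Apart from H2ac1, most genes with the widest ranges on the log2 scale were also highest in HMMR-Tg tumor 8. H4c8 (Hist1h4h) had 1.35, 6.64, 3.83 and 49.5 TPM in HMMR-Tg tumors and 2.31, 11.39, 17.9 and 4.17 TPM in control tumors (difference 0.03, SE 0.90). H2bc8 (Hist1h2bg) had 1.65, 21.2, 33.3 and 51.8 TPM in HMMR-Tg tumors and 12.1, 16.9, 10.2 and 17.5 TPM in control tumors (difference 0.28, SE 0.80). H4c18 (Hist1h4n) had 4.41, 7.11, 8.82 and 13.4 TPM in HMMR-Tg tumors and 4.07, 4.64, 10.9 and 0 TPM in control tumors (difference 1.05, SE 0.68). Only 12.5% of its 31-base words were its own, 85.25% being shared with H4c17. That copy was listed above 0 only in control tumor 4, where H4c18 was listed at 0, so reads may have been split between them. The exception was H2bu2 (Hist3h2ba), an H2B gene on chromosome 11, which was highest in HMMR-Tg tumor 7: it had 0.662, 9.49, 42.0 and 9.22 TPM in HMMR-Tg tumors and 0, 9.29, 0.915 and 12.4 TPM in control tumors (difference 1.22, SE 1.08). None of H4c8, H2bc8, H4c18 and H2bu2, nor H1f2 or H2bc4, had an unadjusted p under 0.05.

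**Figure D3:**
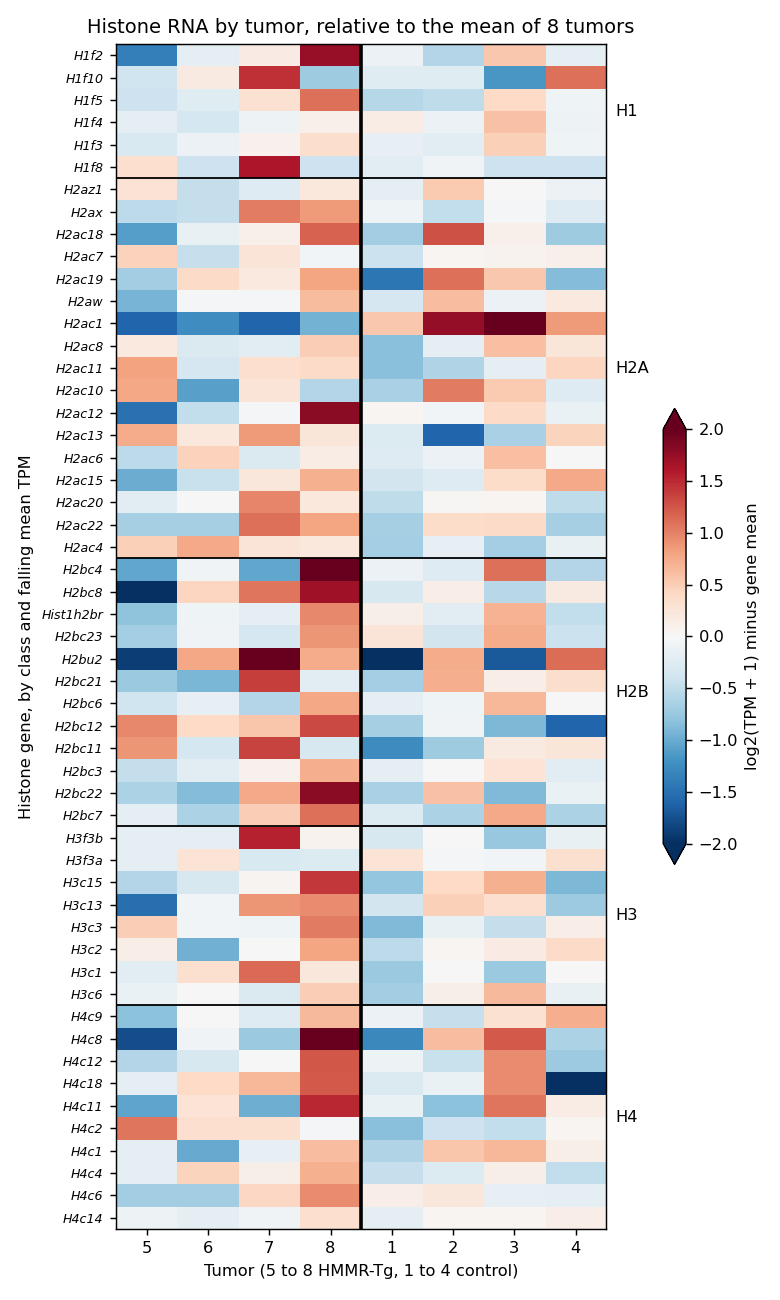
Log2(TPM + 1) of each of the 53 reported histone genes (rows, grouped by class and ordered by mean TPM) minus that gene's mean over 8 tumors, in HMMR-Tg tumors 5 to 8 (left of the line) and control tumors 1 to 4 (right). Red is above and blue below the gene's mean, with colours saturated beyond 2 in either direction. HMMR-Tg tumor 8 is red in most rows, HMMR-Tg tumor 5 and control tumor 1 are blue in many, and H2ac1 is the row that is blue in all HMMR-Tg tumors and red in all control tumors.

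Tumor 8, of the HMMR-Tg genotype, had the highest value in 24 of the 53 genes and the lowest in 1, H1f8, which was listed at 0 in 4 tumors, with 9 of 12 H2B and 7 of 10 H4 genes at their highest there. Counting ties at 0, tumor 5, also HMMR-Tg, had the lowest value in 19 genes, and control tumor 1 the lowest in 13 and the highest in 0. The summed TPM of the 50 replication-dependent genes in the table was 252, 381, 474 and 1053 in HMMR-Tg tumors 5 to 8 and 313, 465, 587 and 353 in control tumors 1 to 4. The means were 540 ± 354 in HMMR-Tg tumors and 430 ± 123 in control tumors (SD, n = 4 each), and without tumor 8 the HMMR-Tg mean was 369. Tumor 8 was the highest in the sums of H1 (267), H2B (408), H3 (22.4) and H4 (130), and control tumor 2 in that of H2A (233, against 226 in tumor 8). The H2A level of tumor 2 came mainly from H2ac18 and H2ac19, a pair of genes that share all of their 31-base words and can only be read as a sum: 154 TPM in control tumor 2 and 137 TPM in tumor 8, against 32.5 to 78.5 TPM in the other 6.

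**Figure D4:**
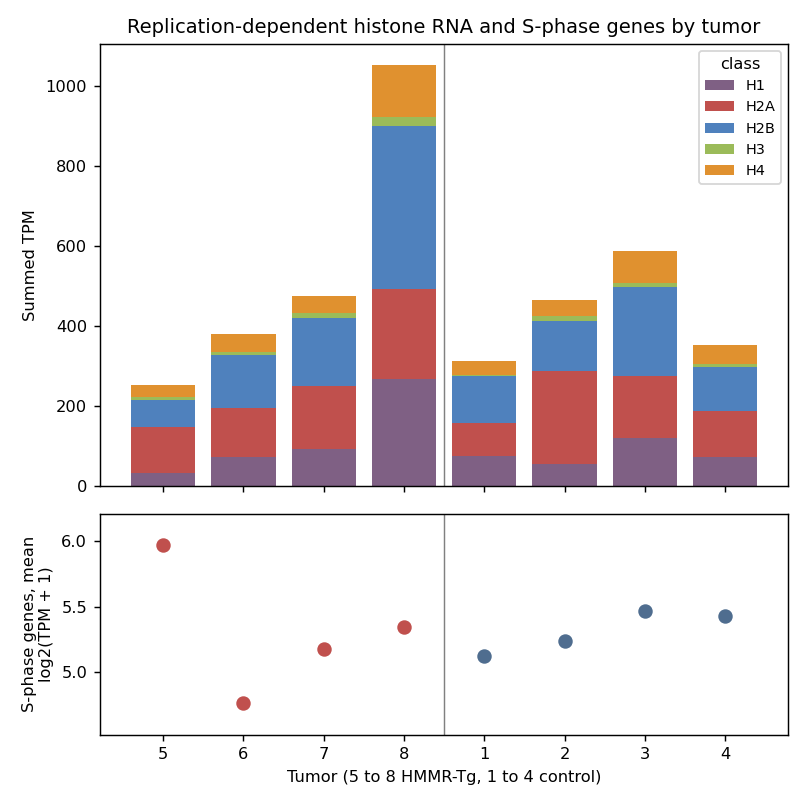
Upper panel: summed TPM (y axis, from 0) of replication-dependent histone genes in each tumor, stacked by class. Lower panel: mean log2(TPM + 1) of 28 DNA replication and S-phase genes in the same tumors, with HMMR-Tg tumors 5 to 8 on the left and control tumors 1 to 4 on the right. Tumor 5 had the lowest histone sum, 252, and the highest S-phase level, 5.97.

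Since these histone genes are transcribed with DNA replication, the sums were set beside 28 genes of DNA replication and S phase. Their mean log2(TPM + 1) was 5.97, 4.76, 5.18 and 5.34 in HMMR-Tg tumors 5 to 8 and 5.12, 5.24, 5.47 and 5.43 in control tumors 1 to 4. The order of the tumors differed from that of the histone sums. Tumor 5 was highest in S-phase genes and lowest in the histone sum, and tumor 8, with the highest histone sum, was in the middle. Selection of polyadenylated RNA is not given and would leave out most stem-loop mRNA, so the sums may miss much of a tumor's histone RNA. The fibroblast markers, of which all 7 passed the filter, were also highest in tumor 8, at a summed 2217 TPM against 235 to 1070 TPM in the other 7 tumors. Its epithelial markers summed to 2287 TPM against 3005 to 7473 TPM. Tumor 8 was not lowest in their mean log2(TPM + 1), which was 7.27 there, 7.14 in HMMR-Tg tumor 7 and 7.17 in control tumor 4. The 6 endothelial markers were highest in tumor 8 as well, at a summed 168 TPM against 59.3 to 100 TPM in the other 7 tumors. Their means were higher in HMMR-Tg tumors for 6 of 6 (49.1% of all genes), with differences from 0.03 (Tek) to 0.80 (Cdh5). In limma, 3 of them (Pecam1, Cdh5 and Emcn) had an unadjusted p under 0.05, where the share of all genes was 1.71%. None passed the adjusted threshold. The part of these markers in the histone levels was not tested. In bulk tissue, fewer cells of a type and less RNA per cell cannot be told apart.

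Genes that act on histone mRNA and histone protein did not pass the adjusted threshold. Of 17 genes of 3′ processing and decay, 7 had higher means in HMMR-Tg tumors, 0 had an unadjusted p under 0.05, and the smallest p belonged to Npat, the coactivator of histone gene transcription, with 12.1, 11.2, 11.7 and 11.7 TPM in HMMR-Tg tumors and 5.54, 6.84, 7.97 and 12.6 TPM in control tumors (difference 0.51, SE 0.28, limma unadjusted p = 0.0949). Srrt, which links the cap-binding complex to processing, had a difference of -0.43 (SE 0.28, limma unadjusted p = 0.156). Of 16 histone chaperones, 10 had higher means and none an unadjusted p under 0.05; the smallest belonged to Daxx, a chaperone of H3.3 (difference 0.35, SE 0.22, limma unadjusted p = 0.146), and Npm1, the nucleolar protein nucleophosmin (0.24, SE 0.22, unadjusted p = 0.296). The 28 replication genes likewise gave 0, with Mcm5 (0.39, SE 0.21, limma unadjusted p = 0.0915) and Mcm7 (-0.55, SE 0.29, unadjusted p = 0.0930), subunits of the replicative helicase, at the top. Of 16 mitotic genes, 1 had an unadjusted p under 0.05, the mitotic kinase Plk1 (difference 0.75, SE 0.31, limma unadjusted p = 0.0399, adjusted p = 1.00), and Aurka, another mitotic kinase, came next (0.56, SE 0.33, unadjusted p = 0.118).

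The 5 replication-independent genes summed to 3090 to 6602 TPM per tumor, against 252 to 1053 TPM for the 50 replication-dependent genes in the table. Selection of polyadenylated RNA is not given and would leave out most stem-loop mRNA. Its part in this contrast was not tested. H2ax and H1f10 averaged 77.5 and 22.5 TPM, below the 92.3 TPM of H1f2. H3f3b, 1 of the pair of genes that encode the same H3.3 protein, had 1406, 1422, 4657 and 1691 TPM in HMMR-Tg tumors 5 to 8 and 1284, 1590, 949 and 1454 TPM in control tumors 1 to 4. Tumor 7 stood far above all others, and the remaining values overlapped (difference 0.62, SE 0.39, limma adjusted p = 1.00, and 0.21 without tumor 7). H3f3a, the other gene of the pair, had 1080, 1493, 997 and 1022 TPM in HMMR-Tg tumors and 1490, 1196, 1179 and 1531 TPM in control tumors (difference -0.24, SE 0.22). H3f3b thus made up 82.4% of the summed H3.3 TPM in tumor 7 and 44.6 to 62.3% in the other 7 tumors. Within 1 Mb on either side of H3f3b on chromosome 11, 58 of 66 other tested genes were above their mean over the other tumors in tumor 7, by a median of 0.57 on the log2 scale, whereas H3f3b was above by 1.75. In the other tumors the window and the gene moved together in some and not in others. In HMMR-Tg tumor 5 the neighbours were above in 44 of 66 and H3f3b deviated by -0.22. In control tumor 4 they were above in 52 of 66 and H3f3b deviated by -0.16. The median of the neighbours and H3f3b also differed in sign in HMMR-Tg tumor 8 and control tumors 1 and 2. Both were below in control tumor 3 (11 of 66 above, H3f3b -0.87) and in HMMR-Tg tumor 6 (11 of 66 above, H3f3b -0.20). This window was examined after the level of H3f3b in tumor 7 had been seen, and the part of the region in that level was not tested.

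**Figure D5:**
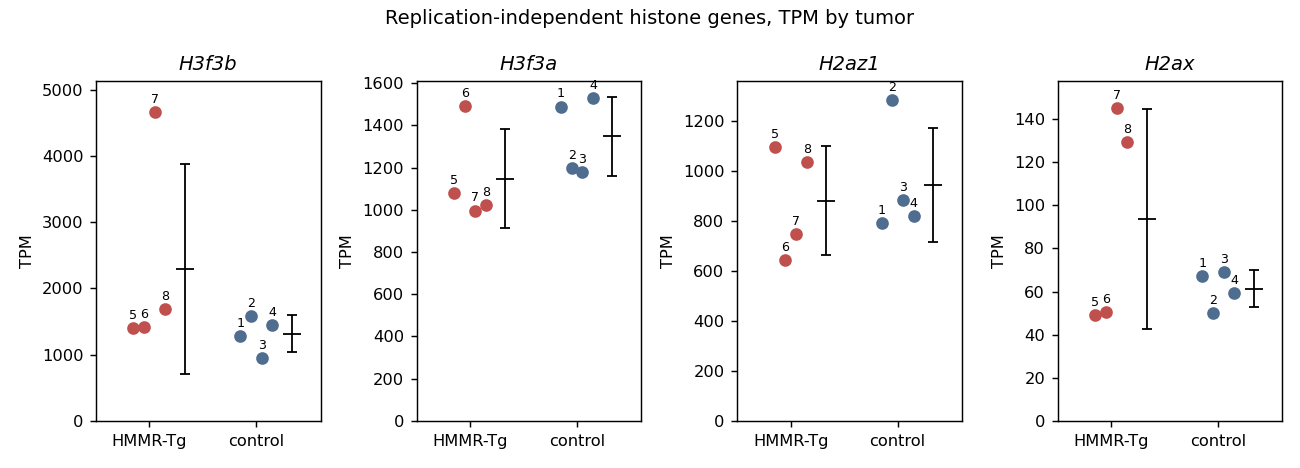
TPM (y axis, linear from 0) of the replication-independent genes H3f3b, H3f3a, H2az1 and H2ax in each tumor, with HMMR-Tg tumors 5 to 8 on the left and control tumors 1 to 4 on the right. Numbers name the tumors, and the bar beside each group is its mean with 1 SD (n = 4). Tumor 7 stands alone in H3f3b at 4657 TPM, and tumors 7 and 8 lie above the other 6 in H2ax.

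H2az1 encodes H2A.Z, a variant found at promoters and regulatory elements. It had 1096, 645, 750 and 1037 TPM in HMMR-Tg tumors and 792, 1284, 886 and 821 TPM in control tumors (difference -0.11, SE 0.25). H2ax, which is phosphorylated at DNA double-strand breaks, had 49.1, 50.6, 145 and 129 TPM in HMMR-Tg tumors and 67.1, 50.2, 68.9 and 59.3 TPM in control tumors. Tumors 7 and 8 were high, while tumors 5 and 6 were near the lowest control tumor (difference 0.44, SE 0.37, limma adjusted p = 1.00). H1f10, a linker histone variant, was likewise highest in tumor 7, with 14.0, 21.4, 53.1 and 11.1 TPM in HMMR-Tg tumors and 15.7, 15.6, 7.82 and 41.5 TPM in control tumors (difference 0.27, SE 0.56). A list of histone variants mostly outside the naming rule had 8 tested genes, H1f8 and H1f10 among them, and none had an unadjusted p under 0.05. Of the others, Cenpa, the centromeric H3, had 117, 63.3, 122 and 116 TPM in HMMR-Tg tumors and 61.9, 96.7, 83.6 and 81.3 TPM in control tumors (difference 0.34, SE 0.26, limma unadjusted p = 0.218). H2az2, the second H2A.Z gene, had a difference of -0.42 (SE 0.32, limma unadjusted p = 0.226).

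The 7 members with a mean under 0.5 TPM were H4c17, H1f6, H4c3, H1f1, H2ac21, H2bc1 and H1f7, and none of them was tested. H4c3 had 0.202 to 0.729 TPM in HMMR-Tg tumors and 0.295 to 0.715 TPM in control tumors, and H1f1 0.284 to 0.693 TPM in HMMR-Tg tumors and 0.0986 to 0.359 TPM in control tumors. H4c17, which shares most of its 31-base words with H4c18, was listed above 0 only in control tumor 4, at 1.85 TPM.

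Among the 39 replication-dependent genes with a stem-loop, the annotated gene end lay within 100 bases of it in 26 and further past it in 13. Distances were taken on the genome, so introns are included, as in H2bc4, which is in the second group. The first group summed to 136, 144, 186 and 327 TPM in HMMR-Tg tumors 5 to 8 and 94.3, 245, 205 and 118 TPM in control tumors 1 to 4, and 19 of the 26 had higher means in HMMR-Tg tumors (median difference 0.25). The second group summed to 88.1, 197, 229 and 632 TPM in HMMR-Tg tumors and 172, 169, 306 and 194 TPM in control tumors, with 6 of 13 higher (median difference 0.00). Means were higher in 28 of all 46 reported replication-dependent genes (60.9%) and in 49.1% of all genes tested. Copies that share sequence, such as H2ac18 and H2ac19, are counted separately. Tumor 8 was the highest in both groups, and stood further above the next tumor in the second. This split was made after the values had been seen, and it carries no test.

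The identity of the samples was examined once for the whole series. The columns summed to between 994001 and 994984 TPM, with 21522 to 22336 genes above 0 per tumor. The human transgene has no row of its own in the table. Mouse Hmmr had 13.04 to 20.2 TPM in HMMR-Tg tumors and 9.39 to 15.2 TPM in control tumors, with overlap (difference 0.37, SE 0.25), and so does not check the labels. The epithelial markers Epcam (477 to 1924 TPM in HMMR-Tg tumors and 756 to 1536 TPM in control tumors), Krt8 and Krt18 were present in every tumor. The 12 skeletal muscle markers summed to 491 TPM in tumor 6 of the HMMR-Tg genotype and to 411 and 135 TPM in control tumors 1 and 3, against 13.5 to 42.8 TPM in the other 5. Without these 3 tumors the difference of H2ac1 was -2.68 (limma unadjusted p = 0.000669, adjusted p = 0.600).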

How the data were processed

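The deposited table holds gene-level TPM that the authors computed for 8 tumors, and every column was matched to a tumor by its label. Both the study's methods and the submitters' processing notes name the mm9 build. Transcripts were quantified by Kallisto and imported with tximport according to the methods, whereas STAR 2.4.0f1, bedtools and SAMtools 0.1.18 are named in the notes. Which of these produced the table is not known. This matters for histone genes, since a quantifier shares reads among near-identical copies by estimation and an aligner keeps or drops them. Selection of polyadenylated RNA is not given in the sources used here. It would leave out most stem-loop mRNA, and a list of 15 RNAs without a poly(A) tail, intended as a check, had 0 matches in the table.

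Differences were tested with limma 3.58.1 (R 4.3.3) on log2(TPM + 1), a pseudocount of 1, using empirical Bayes with a trend of variance on level, over the 16565 genes averaging 0.5 TPM or more. P-values were two-sided and adjusted by the Benjamini-Hochberg method over all of them, at a threshold of 0.05, and p without further description is limma's unadjusted p. Single values were compared by exact permutation over the 70 arrangements of 4 against 4. The procedure was tested on simulated data. TPM columns keep no depth, so precision rests on the spread between tumors.

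Gene symbols and mm9 coordinates came from GENCODE M1, with newer names and promoters from RefSeq (GRCm38.p6), and 25388 of 35539 IDs had a symbol. Words of 31 bases were compared among GENCODE M1 coding transcripts. Stem-loops were searched up to 400 bases past the coding end, and to 100 bases past the annotated end. The members and the gene lists were chosen with earlier results of these data known. Named with values are H2ac1 and H2bc1, the replication-independent genes, H1f6, the 6 most abundant members, the 8 with the smallest p, the 6 with the widest range, the 5 genes most like H2ac1, tested genes within 200 kb of it and the 2 with the smallest p in each list. The lists of other cell types served as markers only. The alternatives were other pseudocounts, filters, scalings, eBayes settings and weights, and leaving out tumors. Scripts ran under Python 3.11.15 with scipy 1.17.1, numpy 2.4.6, pandas 2.3.3, matplotlib 3.10.9 and pysam 0.24.0.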

Additional observations from a re-analysis of the deposited data

Results flagged for a closer look

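Among 112 groups of 4 tumors, formed by the reported histone genes and their sums within a genotype, 4 held a tumor whose gap to its nearest neighbour exceeded the 95% critical value of Dixon's test. Chance alone gives about 1 in 20 such groups, so this is no more than chance gives. In HMMR-Tg tumors, H3f3b was highest in tumor 7 at 4657 TPM, against 1406 to 1691 TPM in tumors 5, 6 and 8. With it, the sum of the 5 replication-independent genes was highest in tumor 7 at 6602 TPM, against 3632 to 3890 TPM in the other HMMR-Tg tumors. In control tumors, H2ac7 was lowest in tumor 1 at 29.46 TPM, against 40.97 to 42.63 TPM in tumors 2 to 4. The share of H2ac1 in the 16 H2A genes summed above was highest in control tumor 3, at 7.657%. The other control tumors had 3.745 to 3.968%.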

How the results depend on the processing

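For the 19 named genes, 349 of 369 values kept their direction and their side of the adjusted threshold, and no histone gene passed that threshold under any alternative. The other 20 values changed sign, and all belonged to genes far from the threshold. Over the fits that left out 1 tumor each, the difference ranged from -0.37 to 0.66 for H1f2, -0.73 to 0.37 for H2ac12, -0.22 to 0.049 for H2az1, -0.75 to 0.29 for H2bc4, -0.24 to 1.204 for H2bc8 and -0.84 to 0.63 for H4c8. Single tumors also moved other differences by more than 1.5 times without changing their sign. H3f3b ranged from 0.21 (without HMMR-Tg tumor 7) to 0.79, H2ax from 0.17 (without tumor 7, and 0.22 without tumor 8) to 0.69 (without tumor 5, and 0.67 without tumor 6), H4c18 from 0.35 (without control tumor 4) to 1.54, H2bu2 from 0.48 (without tumor 7, and 0.54 without control tumor 1) to 2.05 (without tumor 5), H2ac13 from 0.67 (without control tumor 2) to 1.35, H3c1 from 0.47 (without tumor 7) to 0.92, H3c3 from 0.46 (without tumor 8) to 0.85 and H3f3a from -0.38 (without tumor 6) to -0.18. Without tumors 1, 3 and 6, which had the most muscle RNA, it was 0.19 for H2ac12, 0.40 for H2bc4, -0.11 for H2bc8 and -0.38 for H2bu2. A pseudocount of 5 gave 0.068 for H2ac12, a pseudocount of 0.1 gave -0.038 for H4c8, and rescaling without mitochondrial and milk protein genes gave -0.012 for H4c8.

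With a minimum mean of 5 TPM, 0 genes had an unadjusted p under 0.05 in limma in either direction, since all 5 such genes, H2ac1 among them, lie below that level and were not fitted. Leaving out 1 tumor each gave 3 to 7 genes higher in HMMR-Tg tumors at that p, the most without control tumor 4, and 1 lower in each fit. Over these fits the shares of all genes were 1.26 to 2.71% higher and 1.17 to 3.25% lower. Without tumors 1, 3 and 6 the count higher was 2, where the share of all genes was 1.79%. Genes whose genotypes did not overlap numbered 2 to 5 higher and 1 to 2 lower when 1 tumor was left out (5 higher without control tumor 4, 4 without HMMR-Tg tumor 5, 2 lower without HMMR-Tg tumor 6), and 4 higher and 2 lower without tumors 1, 3 and 6, where 8.67% and 9.07% of all genes did so. With a mean of at least 0.5 TPM required in each genotype, an alternative added after seeing the data, 0 genes were lower at an unadjusted p under 0.05 in limma, and 1 higher and 0 lower did not overlap. By Spearman correlation, 3 of the 5 genes most like H2ac1 were again among the first 5. The cause of these changes was otherwise not tested. No paired analysis was possible because the genotypes share no tumor numbers. Low TPM, shared sequence between copies and 4 tumors per genotype limit what these data can show for single histone genes.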
